A study of Saccharomyces cerevisiae with 2 samples.

Results

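The genes described here are 55 budding yeast genes (Saccharomyces cerevisiae) that encode cytosolic translation factors, aminoacyl-tRNA synthetases and the synthetase cofactor ARC1. They were picked by gene symbol for their role in translation, and 55 of 55 were found in the annotation of the array. These 55 and all other genes with a single-gene probe set number 5662. They were read by 54 probe sets. A probe set is a group of short probes that together report 1 transcript. Of the 55 genes, 49 had probe sets of their own, and 6 were read in pairs by 3 shared probe sets (TEF1/TEF2, EFT1/EFT2 and TIF1/TIF2), which gives 52 genes or shared pairs. The samples were 2 replicates of 1 group, yeast that carries histone H3 K4,36,79R and had spent 18 hours in glucose. Each replicate was hybridised to 1 Affymetrix array with biotin-labelled cRNA. The sample titles number the replicates and do not say whether they came from separate cultures. The histone H3 of this yeast carries arginine in place of lysine at the named positions. The cells had first grown in selective galactose medium, which keeps a wild-type H3 copy on, and glucose shut that copy down. Wild-type cultures and earlier times were not analysed here, so the values describe the mutant alone and cannot show an effect of the mutation. The labels give neither the strain background nor the position of the mutant H3 gene.

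Translation starts when eIF2 brings the initiator tRNA to the small ribosomal subunit and eIF4F, bound to the mRNA cap, recruits that subunit with the help of eIF3. Elongation factors then deliver charged tRNAs and move the ribosome, and release factors end synthesis at a stop codon. Aminoacyl-tRNA synthetases charge each tRNA with its amino acid. In growing yeast these proteins are made in large amounts, and eIF2 with its exchange factor eIF2B is the control point through which amino acid starvation raises translation of GCN4.

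All values are MAS5 signals as deposited, in arbitrary units, on a linear scale. The median over all 9335 probe sets was 25.5 on replicate 1 and 25.7 on replicate 2. Probe sets differ in affinity, so a signal gives a level for its own gene and is not set against the signal of another. Background was read from control probe sets with no yeast target (1.86 on replicate 1 and 1.69 on replicate 2). All 52 genes or pairs exceeded it on both arrays, and so did 96.3% of 6504 single-gene probe sets. The count is therefore not a result about these genes. All 52 also passed the minimum mean signal of 20 that was used for comparing the arrays.

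The cap-binding complex eIF4F was read for each of its subunits. CDC33, the cap-binding protein eIF4E, gave 229.7 on replicate 1 and 245 on replicate 2. The eIF4G scaffold has a pair of genes, and TIF4631 gave 60.0 and 59.1 on the same arrays. TIF4632, the second scaffold gene, gave 37.2 and 39.3. None of these 3 genes differed by as much as 1.1-fold between the arrays. Of all 4244 genes or pairs compared, 36.2% were past 1.1-fold. A few genes within it, here or below, are therefore no result about them. TIF1 and TIF2 both encode the RNA helicase eIF4A, each in a gene of 1188 bases in the RefSeq table. Their shared probe set gave 696 on replicate 1 and 676 on replicate 2 and cannot tell the genes apart. TIF3, which encodes the helicase stimulator eIF4B, gave 65.1 and 68.4. PAB1, the poly(A)-binding protein that contacts eIF4G, gave 219 on replicate 1 and 245 on replicate 2 and was 1.12-fold higher on replicate 2.

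Subunits of eIF2, the GTP-binding carrier of the initiator tRNA, lay a median log2 distance of 0.09 apart between the arrays, whatever the direction. That distance was 0.10 over all genes compared. SUI2, the alpha subunit that Gcn2 phosphorylates, gave 96.2 on replicate 1 and 88.7 on replicate 2. SUI3, the beta subunit, gave 143 and 149. GCD11, the GTP-binding gamma subunit, gave 211 on replicate 1 and 224 on replicate 2. SUI2 was thus lower on replicate 2 and the other 2 subunits were higher, with log2 differences (replicate 2 minus replicate 1) of -0.12 for SUI2, 0.07 for SUI3 and 0.09 for GCD11.

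The 5 subunits of eIF2B, which exchanges GDP for GTP on eIF2, did not all lie on 1 side. GCD2, the delta subunit, gave 36.3 on replicate 1 and 46.4 on replicate 2 (mean 41.4 ± 7.18, SD, n = 2). At 1.28-fold higher on replicate 2, with a log2 difference of 0.36, GCD2 was the gene farthest apart between the arrays among the 52 as deposited. GCN3, the alpha subunit of the regulatory part, gave 43.1 and 47.1. GCD7, the beta subunit, gave 58.3 on replicate 1 and 57.1 on replicate 2. The catalytic part holds GCD1 and GCD6, and GCD1, its gamma subunit, gave 120.5 and 128. GCD6, the epsilon subunit with the exchange activity, gave 78.0 on replicate 1 and 74.2 on replicate 2. Higher signals on replicate 2 were seen for GCD1, GCD2 and GCN3, and lower ones for GCD6 and GCD7, of which GCD7 changed sign when differences were centred within blocks of probe set numbers. The 5 genes had a median log2 difference of 0.08, and the range ran from -0.07 to 0.36.

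In eIF3, the scaffold on the small subunit, NIP1 (eIF3c) gave 45.6 on replicate 1 and 56.7 on replicate 2 (mean 51.2 ± 7.91, SD, n = 2). NIP1 was higher on replicate 2 by a log2 difference of 0.32 and came second to GCD2 in distance between the arrays, or just ahead of it with differences centred within blocks of probe set numbers (0.32 for NIP1 and 0.31 for GCD2). RPG1 (eIF3a) gave 136 and 131, and was the eIF3 gene with the lower signal on replicate 2. PRT1 (eIF3b) gave 141 on replicate 1 and 143 on replicate 2. TIF34 (eIF3i), a WD-repeat subunit, gave 229.9 and 237. TIF35 (eIF3g), an RNA-binding subunit, gave 177 on replicate 1 and 192 on replicate 2. The 4 eIF3 genes other than NIP1 had log2 differences between -0.06 and 0.12.

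The remaining initiation factors act as single proteins. SUI1 (eIF1), which guards start codon choice, gave 361 on replicate 1 and 365 on replicate 2. TIF11 (eIF1A), which works beside it on the small subunit, gave 201 and 174 (mean 188 ± 18.8, SD, n = 2) and was 1.15-fold lower on replicate 2. FUN12 (eIF5B), the GTPase that joins the ribosomal subunits, gave 235 on replicate 1 and 269 on replicate 2 and was 1.15-fold higher on replicate 2. TIF5 (eIF5), the GTPase activator of eIF2, gave 71.1 and 72.8. The 23 initiation genes or pairs thus held both positive and negative differences, with 16 higher and 7 lower on replicate 2 and a median log2 difference of 0.07. Over the 4244 genes or pairs compared the median was 0.023, and 56.3% were higher and 43.7% lower on replicate 2.

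**Figure D1:**
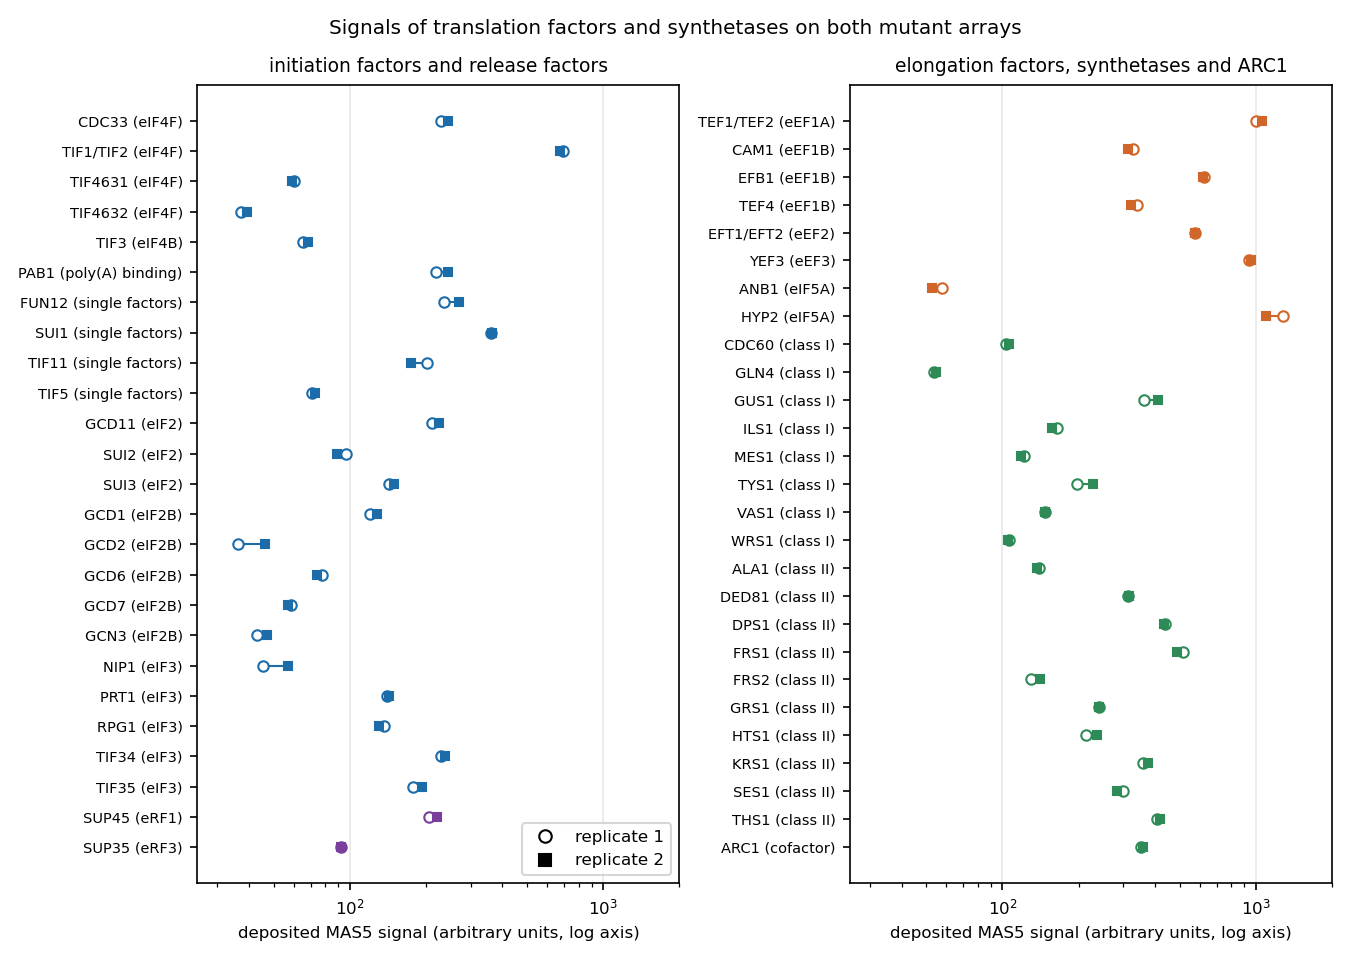
MAS5 signal (arbitrary units, log axis) of each of the 52 genes or shared pairs, with replicate 1 as an open circle, replicate 2 as a filled square and a line between them. Initiation factors (blue) and release factors (purple) are on the left, elongation factors (orange) and synthetases with ARC1 (green) on the right. The replicates lie close together for most genes, and the longest lines are those of GCD2 and NIP1; positions of different genes are not comparable.

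Elongation factors were read by 8 genes or shared pairs. TEF1 and TEF2 both encode eEF1A, which brings charged tRNAs to the ribosome, and each is 1377 bases long in the RefSeq table. The shared TEF1/TEF2 probe set gave 1005 on replicate 1 and 1054 on replicate 2. EFT1 and EFT2, of 2529 bases each, both encode the translocase eEF2, and the shared probe set gave 575 and 574. YEF3, the ATPase eEF3 found in fungi, gave 942 on replicate 1 and 960.0 on replicate 2. All 3 of these probe sets read within 1.1-fold on the 2 arrays as deposited, while 36.2% of all genes compared were past it. After quantile normalization TEF1/TEF2 passed 1.1-fold, with a log2 difference of 0.15.

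The nucleotide exchange complex eEF1B recharges eEF1A with GTP, and 2 of its genes had 2 probe sets each. EFB1, the catalytic alpha subunit, gave 626 on replicate 1 and 620.4 on replicate 2 with its brighter probe set, and 536 and 551 with its other one. TEF4, a gamma subunit, gave 340.1 on replicate 1 and 321 on replicate 2 with its brighter probe set and 110.4 and 117 with the dimmer. The probe sets of TEF4 disagreed in direction, with log2 differences of -0.08 and 0.08, and those of EFB1 did so too, with -0.01 and 0.04. Which part of either gene a probe set covers is not given in the sources used here. CAM1, the other gamma subunit gene, gave 327 and 314. With the brighter probe sets, EFB1, TEF4 and CAM1 were all lower on replicate 2, a direction that the second probe sets of EFB1 and TEF4 did not share.

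Yeast has a pair of genes for eIF5A, the hypusine-bearing factor that helps the ribosome through difficult peptide bonds such as runs of proline and also aids termination. HYP2 is the form used in air, and ANB1 is the hypoxic form, which Rox1 represses when haem is made. Both genes are 474 bases long in the RefSeq table, and each had 1 probe set of its own. HYP2 gave 1279 on replicate 1 and 1094 on replicate 2 (mean 1186 ± 131, SD, n = 2). ANB1 gave 57.7 on replicate 1 and 52.6 on replicate 2 (mean 55.2 ± 3.60, SD, n = 2). Because the 2 probe sets can differ in affinity, no ratio between the genes is given. The coding sequences are alike, and how much HYP2 transcript the ANB1 probe set picks up was not tested. Both were lower on replicate 2, by a log2 difference of -0.23 for HYP2 and -0.13 for ANB1. As deposited, HYP2 had the most negative difference of the 52, followed by TIF11 with -0.20. That order depended on the scaling: HYP2 stood at -0.12 after quantile normalization and -0.16 after loess, with TIF11 at -0.21 in both.

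Oxygen-regulated genes outside the translation machinery were read for context, since ANB1 is counted among them. Among the pairs of an aerobic and a hypoxic isoform, the cytochrome c oxidase subunit gene COX5A gave 193 on replicate 1 and 197 on replicate 2, and its hypoxic partner COX5B gave 29.1 and 33.1. Cytochrome c gave 501 and 457 from CYC1, and 115.0 and 115.4 from its hypoxic partner CYC7. The ADP/ATP carrier PET9 gave 596 and 609, and AAC3, the form made without oxygen, gave 40.3 and 34.3. HMG1, for HMG-CoA reductase, gave 302 on replicate 1 and 275 on replicate 2, and HMG2 gave 55.5 and 53.2. The haem synthesis gene HEM13 gave 65.7 and 54.8, and the repressor gene ROX1 gave 36.5 and 38.4. The cell wall genes DAN1 and TIR3 gave 9.54 and 81.2 on replicate 1 and 9.90 and 90.6 on replicate 2, and the sterol importer AUS1 gave 41.4 and 45.0. Each of these 13 genes exceeded the background on both arrays. With 96.3% of all single-gene probe sets doing so, that count says nothing about the hypoxic programme. Of the 12 bright enough to compare, 7 were higher and 5 lower on replicate 2, near the 43.7% lower over all genes compared, so the count is no result about oxygen-regulated genes. COX5A and CYC7 changed sign under some scalings.

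**Figure D2:**
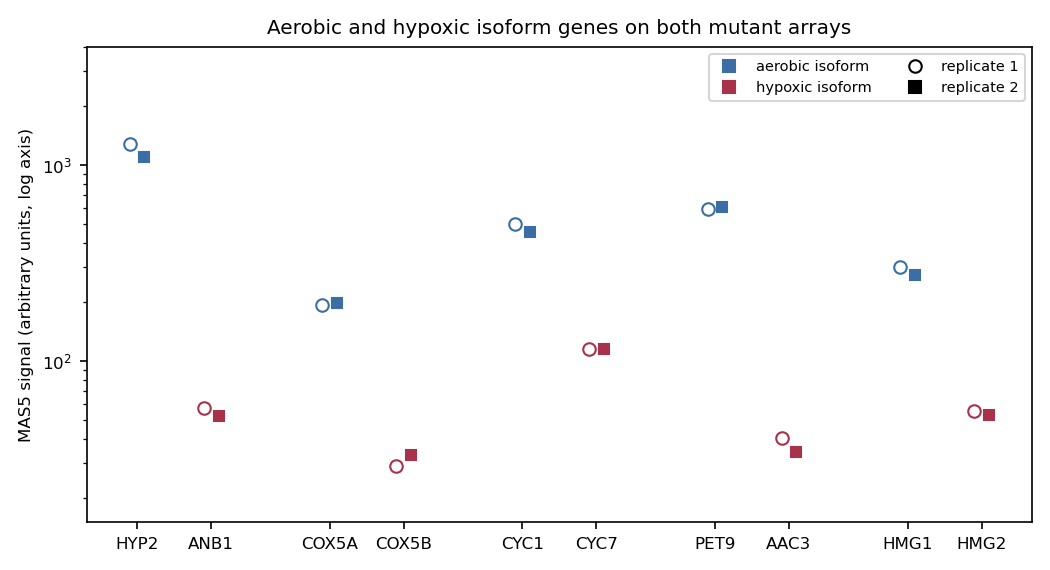
MAS5 signal (arbitrary units, log axis) of 5 pairs of genes, the aerobic isoform (blue) left of the hypoxic one (red), with replicate 1 as open circles and replicate 2 as filled squares. HYP2 lies at 1279 and 1094 and ANB1 at 57.7 and 52.6, each lower on replicate 2; the height of a gene against its partner also holds the affinity of its probe set.

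Termination was read by its 2 release factors. SUP45, the release factor eRF1 that reads stop codons, gave 206 on replicate 1 and 222 on replicate 2. SUP35, the GTPase eRF3 that can form the [PSI+] prion, gave 92.5 and 92.4. The log2 difference was 0.11 for SUP45 and 0.00 for SUP35, so neither reached 1.1-fold, which 36.2% of all genes compared passed.

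Synthetases fall into 2 unrelated structural classes, and 8 genes of class I were read. CDC60, the leucine enzyme, gave 103 on replicate 1 and 106 on replicate 2. GLN4, for glutamine, gave 53.7 and 54.6. ILS1, for isoleucine, gave 164 on replicate 1 and 157 on replicate 2. These enzymes lay within 1.1-fold between the arrays, as did the next 2, while 36.2% of all genes compared were past it. VAS1, whose single gene supplies the valine enzyme of both cytosol and mitochondria, gave 148 and 147. WRS1, for tryptophan, gave 106 on replicate 1 and 105 on replicate 2. TYS1, for tyrosine, gave 197 and 228 (mean 213 ± 21.9, SD, n = 2) and was the synthetase farthest apart, 1.16-fold higher on replicate 2.

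ARC1, a tRNA-binding cofactor, holds the class I enzymes for methionine and glutamate in 1 cytosolic complex. MES1, the methionine enzyme, gave 122 on replicate 1 and 119 on replicate 2. GUS1, the glutamate enzyme, gave 363 and 411 (mean 387 ± 34.2, SD, n = 2). ARC1 itself gave 352 on replicate 1 and 358 on replicate 2. The log2 differences were 0.18 for GUS1, -0.03 for MES1 and 0.02 for ARC1, all inside the middle 95% of genes compared. Centred within blocks of probe set numbers they were 0.10 for GUS1, -0.08 for MES1 and -0.06 for ARC1.

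Class II was read by 10 genes. ALA1, for alanine, gave 139 on replicate 1 and 137 on replicate 2, and, like GRS1, HTS1 and VAS1, is known to make the enzyme of cytosol and mitochondria from 1 gene. GRS1, for glycine, gave 239 and 241. HTS1, for histidine, gave 214 on replicate 1 and 236 on replicate 2, 1.11-fold higher on replicate 2. ALA1, GRS1, HTS1 and VAS1 ran from -0.03 (ALA1) to 0.14 (HTS1) in log2 difference. DED81, for asparagine, gave 313 on replicate 1 and 315 on replicate 2. DPS1, for aspartate, gave 439 and 433. KRS1, for lysine, gave 357 on replicate 1 and 374 on replicate 2. Each of these 3 lay within 1.1-fold, while 36.2% of all genes compared were past it. SES1, for serine, gave 299 and 284, and THS1, for threonine, gave 408 and 420.3. The phenylalanine enzyme is built from unlike subunits, of which FRS2 (alpha) gave 129.7 on replicate 1 and 140.4 on replicate 2. FRS1, the beta subunit, gave 517 and 487. The log2 difference was 0.11 for FRS2 and -0.09 for FRS1, and both shrank, to 0.03 and -0.03, when differences were centred within blocks of probe set numbers. Over the 19 genes for synthetases and ARC1 the median log2 difference was 0.01, with 11 higher and 8 lower on replicate 2. After median centring 9 were higher and 10 lower. As deposited, 56.3% of all genes compared were higher and 43.7% lower, so the count of 11 and 8 is no result about these genes.

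The arrays were then compared over all 4244 genes or pairs with a mean signal of at least 20. Each replicate had 1 array, so the difference between the arrays has no replicate and no p-value. It mixes labelling, array and any difference between cultures. None of the 52 translation genes or pairs differed by more than 1.5-fold, against 0.683% of all compared, a share under which 0 of 52 is no result about these genes. By direction, that share was 0.0943% higher and 0.589% lower on replicate 2. More than 25% apart there was 1 translation gene, GCD2, against 5.09% of all. Past 1.1-fold there were 9 of 52 (17.3%), against 36.2% of all and 32.5% of the 2879 that lay in the same range of mean signal, 38.3 to 1186. The 9 were GCD2, NIP1, TYS1, FUN12, GUS1, PAB1 and HTS1, which were higher on replicate 2, and HYP2 and TIF11, which were lower. The count was 7 to 10 of 52 (13.5 to 19.2%) under the scalings, an offset and averaged probe sets, and its members changed. HYP2 dropped out after quantile normalization, and GUS1, PAB1 and HTS1 with block centring. HTS1 also dropped out after median centring and with the offset. ANB1 passed after quantile normalization, loess, median centring and block centring, and TEF1/TEF2 after quantile normalization. The share of all genes in those settings was 24.0 to 35.95%. The median distance between the arrays, without regard to direction, was 0.07 on the log2 scale for the translation genes, 0.09 for those in the same range of signal and 0.10 for all compared.

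That lower share was not the same at every signal. With mean signals from 40 to 80, 2 of 10 translation genes were past 1.1-fold, against 35.9% of the 1274 genes compared there. With mean signals from 80 to 160, 0 of 12 translation genes were past 1.1-fold, against 31.5% of 746. From 160 to 320 the count was 5 of 14, against 27.7%. At 320 or more it was 2 of 15, against 26.6% of 335. The shares of the translation genes therefore lay on both sides of those of equally bright genes, and these differences have no test.

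**Figure D3:**
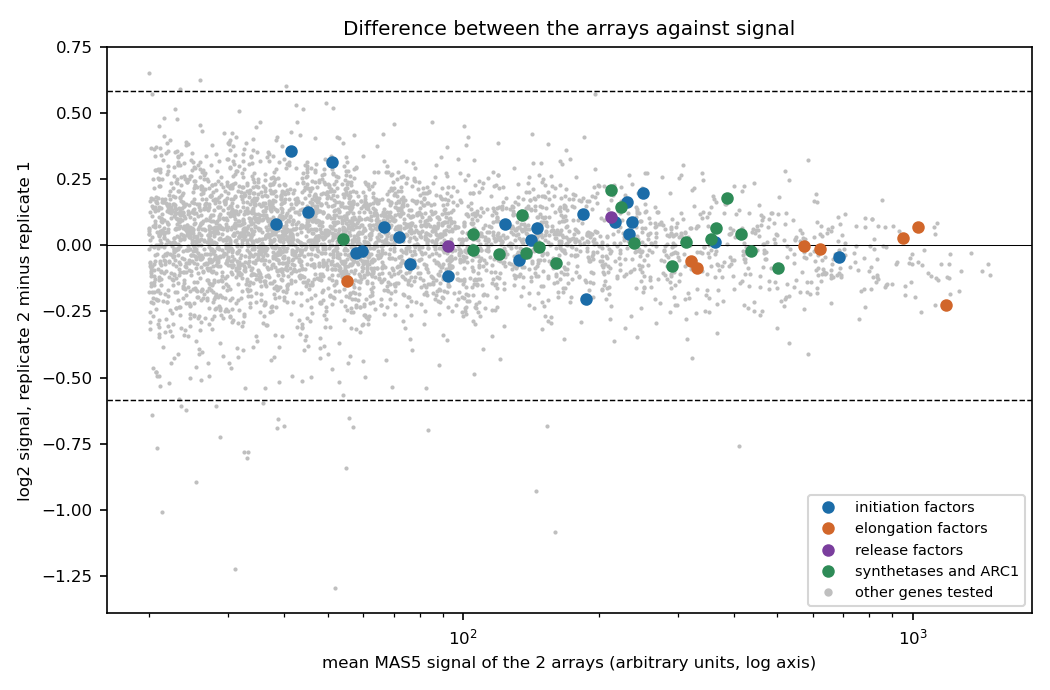
Difference between the arrays (log2 signal, replicate 2 minus replicate 1) against mean MAS5 signal (arbitrary units, log axis) for the translation genes, coloured by class, and for all other genes compared in grey. Dashed lines mark 1.5-fold; no translation gene lies outside them, while 25 of all compared lie below (0.589%) and 4 above (0.0943%).

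In direction, 30 of the 52 were higher on replicate 2 and 22 lower, against 56.3% higher and 43.7% lower over all genes compared. Their median log2 difference was 0.022, and that of all genes was 0.023. By class the median was 0.07 for initiation, -0.04 for elongation, 0.05 for the 2 release factors and 0.01 for the synthetases with ARC1. Of the 8 elongation genes or pairs, TEF1/TEF2 and YEF3 were higher and the other 6 lower on replicate 2, but after quantile normalization or loess 4 were higher and 4 lower. The elongation median has no settled direction, since it became 0.01 after quantile normalization. Of the 52, 13 changed sign under some scaling, with an offset or with averaged probe sets, and had log2 differences within 0.08 of 0 as deposited: ARC1, DED81, DPS1, GLN4, GRS1, EFB1, EFT1/EFT2, GCD7, PRT1, SUI1, TIF1/TIF2, TIF4632 and TIF5. TEF4 is not among them, although its dimmer probe set alone has the other sign. Sign changes over all genes compared are not given, so 13 of 52 is no result about these genes. The initiation median stayed between 0.03 and 0.07 in the 9 alternatives.

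Part of the difference between the arrays moved with the number of the probe set. In blocks of 500 numbers, the median log2 difference of all genes ran from -0.06 to 0.08 over the 15 blocks with at least 200 genes, which held all 52. With each block centred on its own median, GCD2 stood at 0.31, NIP1 at 0.32, HYP2 at -0.28 and TIF11 at -0.20, against 0.36, 0.32, -0.23 and -0.20 as deposited. Over all scalings and an offset the ranges were 0.26 to 0.36 for GCD2, 0.24 to 0.32 for NIP1, -0.28 to -0.12 for HYP2 and -0.22 to -0.19 for TIF11. The initiation median became 0.03 and the elongation median -0.07. What the numbering stands for on the array is not given in the sources used here.

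**Figure D4:**
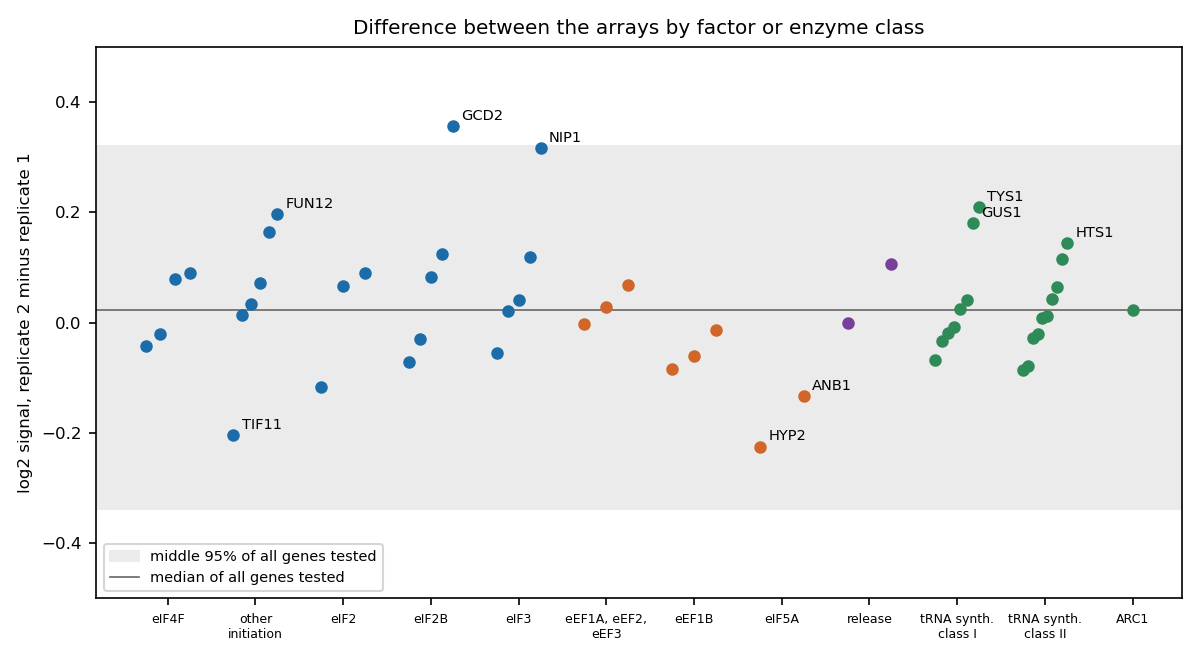
Difference between the arrays (log2 signal, replicate 2 minus replicate 1) for each of the 52 genes or shared pairs, grouped by factor or enzyme class, with the median (line) and the middle 95% (grey, -0.34 to 0.32) of the 4244 compared. GCD2 lies above the grey band, NIP1 at its upper edge, and the other genes inside it.

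Other genes of translation were read from lists of their own. Of 3 further cytosolic synthetases, listed by systematic name, 2 were matched to a probe set by that name. YDR341C gave 327 on replicate 1 and 351 on replicate 2, and YHR020W gave 201 and 229.8. The third, for cysteine, was not found under that name, and its signal was not looked up under another. Its absence here does not mean that the array lacks it. Of 24 further cytosolic factors and regulators, 24 exceeded the background. So did 96.3% of all single-gene probe sets, and the count says nothing about these factors. The 22 at or over the minimum signal stood at a median log2 difference of 0.04, with 14 higher and 8 lower on replicate 2. Over all genes compared, 56.3% were higher and 43.7% lower, and the difference from that share has no test. The signals of that list ran from DOM34, of no-go decay, with 12.2 and 13.7, to STM1, a ribosome-bound protein, with 690.2 and 683. Of 13 mitochondrial synthetases, 7 reached the minimum signal, with a median log2 difference of 0.07. In that list DIA4, the serine enzyme, gave 7.23 on replicate 1 and 7.97 on replicate 2, and MSK1, for lysine, gave 42.8 and 44.9. Among 7 mitochondrial translation factors TUF1, the elongation factor Tu, gave 200.2 and 225. FMT1, the formyltransferase for the initiator tRNA, gave 0.996 on replicate 1 and 0.521 on replicate 2, below background on both arrays. Its 1.91-fold lower signal on replicate 2 therefore has no weight. None of the genes of these lists that reached the minimum signal passed 1.5-fold between the arrays. Only 0.683% of all genes compared did, so this is no result about the lists.

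In the gene order of RefSeq, 3 of the translation genes lie next to a gene of these lists. ANB1 is the neighbour of CYC1, and the log2 differences were -0.13 for both. FUN12 is the neighbour of RBG1, a ribosome-interacting GTPase, with 0.20 for FUN12 and 0.41 for RBG1, which gave 159 on replicate 1 and 212 on replicate 2. DED81 is the neighbour of YHR020W, with 0.01 for DED81 and 0.19 for YHR020W. The first 2 pairs also have neighbouring probe set numbers, so nearness on the chromosome and in the numbering cannot be told apart. How alike neighbouring genes are over the whole array was not tested. The neighbours were looked up after the differences had been seen.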

How the data were processed

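Total RNA from the 2 mutant replicates was hybridised to 1-colour Affymetrix arrays. The deposited table holds linear intensity values, 1 per probe set, that the authors made with MAS5, per the submitters' processing notes. The sources used here state neither its version nor its scaling target nor a genome build. The platform annotation gave 1 symbol to 6504 probe sets, several to 328 and none to 2503; all 55 genes matched RefSeq (assembly R64) by gene identifier, which supplied gene lengths and gene order. A gene with several probe sets was represented by its brightest (mean of log2 signals). Background was the 95th percentile of 13 foreign control probe sets on each array. Arrays were compared as log2 signal, replicate 2 minus replicate 1, with no offset, over genes whose mean signal reached 20. With 1 array per replicate no test was run, and the number of arrays limits the precision. Every translation gene was named; of the other translation lists, those with the highest and lowest signal and any past 1.5-fold, and every oxygen-regulated gene. The genes and lists were chosen with earlier results of these data known. Alternatives changed the scaling (quantile, loess with a span of 0.4, median centring), the filter, the fold, an offset of 16, probe set choice and the background. Simulated data were used only to check the count past 1.5-fold, the median of shifted genes and the removal of a constant factor. That removal was checked for quantile normalization, loess and block centring. The simulated differences were drawn with a narrower spread than the real ones. Probe set choice, the signal filter, the background and the sign counts were not checked in this way. Python 3.11.15, pandas 2.3.3, numpy 2.4.6 and statsmodels 0.14.6 were used.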

Additional observations from a re-analysis of the deposited data

How the results depend on the processing

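No paired analysis was possible because the samples form 1 group. The count of translation genes past 1.5-fold, 0, became 1 when a difference of 25% was enough and was 0 in the other alternatives. Over all genes compared, 29 were past 1.5-fold, and this became 122 with no filter, 10 with a mean signal of at least 40 and 7 with an offset of 16, while a difference of 25% gave 216 and a fold of 2 gave 4. The median log2 difference of the translation genes, 0.022, ran from -0.0052 to 0.038 in 9 alternatives, and that of the elongation class from -0.07 to 0.01. The synthetase median, 0.01, became -0.021 when differences were centred within blocks of 500 probe set numbers, a choice made after seeing the data, and the cause was not tested. Median centring also took it below 0, to -0.0034, and block centring left 8 of the 19 genes higher and 11 lower on replicate 2. The median signal of the translation genes, 200.3, ran from 199 to 207 with either array alone. It was 191 when EFB1 and TEF4 were read by the average of their probe sets, and 185 without the shared probe sets, which leaves 49 genes. All 52 stayed above background in every background alternative. The HYP2 and ANB1 means ran from 1094 to 1279 and from 52.6 to 57.7 with either array alone. Of the 52 genes or shared pairs, 39 kept the sign of their difference under all scalings, with an offset and with averaged probe sets. Among them were GCD2, NIP1, HYP2, ANB1 and TIF11, though HYP2 ran from -0.28 to -0.12. No such count over all genes compared is given, so 39 of 52 is no result about these genes. The alternatives for the count past 1.1-fold were chosen after seeing the data. Signals near 40, such as those of GCD2 and TIF4632, are limited by a spread that was wider for dimmer genes.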
